A study of Mus musculus with 24 samples.

Results

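The comparison was between the responses of microglia and astrocytes to lipopolysaccharide (LPS) in control mice, gene by gene. Libraries were chosen by their labels as the 12 of the 24 in the series that came from Serpine2 controls, and 52404 of the 56783 Ensembl identifiers listed in either cell type were present in both. All controls were adult littermates of Serpine2-/- mice and carried 1 or more working Serpine2 alleles, so heterozygous and wild-type animals are not separated here. The 4 groups, of 3 libraries each, were microglia after saline injection, microglia after LPS injection, astrocytes after saline injection and astrocytes after LPS injection. Microglia had been dounced from whole brain and enriched on Percoll, whereas astrocytes had been freed from cerebral cortex with papain, and both were then immunopanned. Cell type therefore cannot be told apart from brain region, preparation or gene annotation, but each LPS response was taken within 1 cell type. Nothing in the labels says whether a library came from 1 animal or several, so p-values measure the spread between these libraries. For each gene, the LPS response (log2 fold change of LPS over saline) of astrocytes was subtracted from that of microglia, so that a negative difference marks a larger response in astrocytes.

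LPS is a glycolipid of the outer membrane of Gram-negative bacteria that is sensed by the receptor TLR4 with CD14 and MD-2. Its signal runs through MyD88 to NF-kB, which drives cytokines and acute phase genes, and through TRIF to type I interferon, which then acts on many cell types through its own receptor. Microglia are the resident macrophages of the brain and carry the LPS receptor, whereas astrocytes are known to respond largely to cytokines released by other cells and then take on a reactive state. Injection of LPS also raises circulating glucocorticoids, whose receptor switches on a further set of genes.

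Microglial libraries held 5354865 to 13621776 gene counts and astrocyte libraries 10944765 to 23202563. Reads outside annotated genes were 56.2% to 72.7% in microglia and 16.0% to 21.1% in astrocytes, and ribosomal RNA genes held 37.1% to 52.0% of the gene counts of astrocytes against 2.48% to 5.27% in microglia. Levels are given as CPM, gene counts scaled to the library size times a TMM factor, which adjusts for differences in composition between libraries. The factors were 0.512 to 0.674 in astrocyte and 1.61 to 1.75 in microglial libraries, so levels compared between cell types depend on them. The 10 microglial marker genes summed to 1783 to 3519 CPM in saline microglia and to 354 to 410 CPM in saline astrocytes. The 10 astrocyte markers summed to 34540 to 39940 CPM in saline astrocytes and to 317 to 358 CPM in saline microglia. After LPS the microglial markers summed to 1149 to 2081 CPM in microglia, where neuron markers summed to 1765 to 2212 CPM over both treatments. The part of other cells in the microglial responses was not tested. Oligodendrocyte markers summed to 5612 to 10230 CPM in astrocytes. Serpine2, scaled to library totals without the TMM factors, was at 51.2 to 198 CPM in control libraries and at 16.8 to 27.7 CPM in knockout libraries. Transcripts of the sex chromosomes went with the labelled sex in 23 of 24 libraries, the exception being microglia LPS control 1. Astrocyte LPS control 3 stood apart from the other LPS astrocyte libraries. Over the 600 genes that rose in astrocytes, its median log2 value over the saline mean was 1.59, against 2.66 and 2.81 in libraries 1 and 2, and it was the lowest of the 3 in 67.8% of them, against 29.5% of all genes tested. It was also the only LPS astrocyte control library with transcripts of a female, as saline library 1 was among the saline astrocyte controls. With sex from transcripts in the fit, 51 genes had a called difference in place of the 58 described below, 46 of them among the 58. With sex from the labels 28 had one. Sex entered as 1 term shared by both cell types and treatments. Such a term cannot take up a sex difference in the LPS response, which was not tested.

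Of 23449 genes tested, 58 responded differently in the 2 cell types, which is 0.247% of them, at a Benjamini-Hochberg adjusted p under 0.05 in edgeR's quasi-likelihood test (called, from here on). The difference was negative for 55 genes (0.235%) and positive for 3 (0.0128%). An unadjusted p under 0.05 was reached by 2510 genes. In astrocytes 839 genes were called for LPS against saline (3.58%), of which 600 rose (2.56%) and 239 fell (1.02%). In microglia 23 genes were called (0.0981%), of which 21 rose (0.0896%) and 2 fell (0.00853%), whereas limma called 393 genes higher and 427 lower. Without astrocyte LPS control 3, 72 genes were called in microglia, and 92 with the cell type fitted alone. Of the 55 genes with a negative difference, 54 rose in astrocytes and were not called in microglia. The exception was Txnip, an inhibitor of thioredoxin, which is named here because of its values: its response was -1.22 in microglia and 0.86 in astrocytes, neither of them called, and its difference was -2.08 ± 0.39 (SE). The median response of the 55 was 4.18 on the log2 scale in astrocytes and 0.00 in microglia, where 27 of the 55 were below 0 and 45 lay between -1 and 1. Saline and LPS libraries did not overlap in astrocytes for any of the 58 genes, against 16% of genes tested without overlap, and in microglia for 21 of the 58, against 11.8%. In saline, 42 of the 55 had a lower mean CPM in astrocytes than in microglia, a count that depends on the TMM factors. Without astrocyte LPS control 3, the difference was called for 449 genes, 136 positive and 313 negative, and these included all 58. Without microglia LPS control 2 it was called for 10 genes, and without astrocyte LPS control 2 for 13. Of 32 genes followed by name, 9 kept the call without any 1 of the 12 libraries, namely Ddx60, A2m, Sult1a1, Plin4, Mrpl41, Fbln5, H2-Ab1, H2-T23 and Usp18. The others kept their sign but lost the call without at least 1 library.

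**Figure D1:**
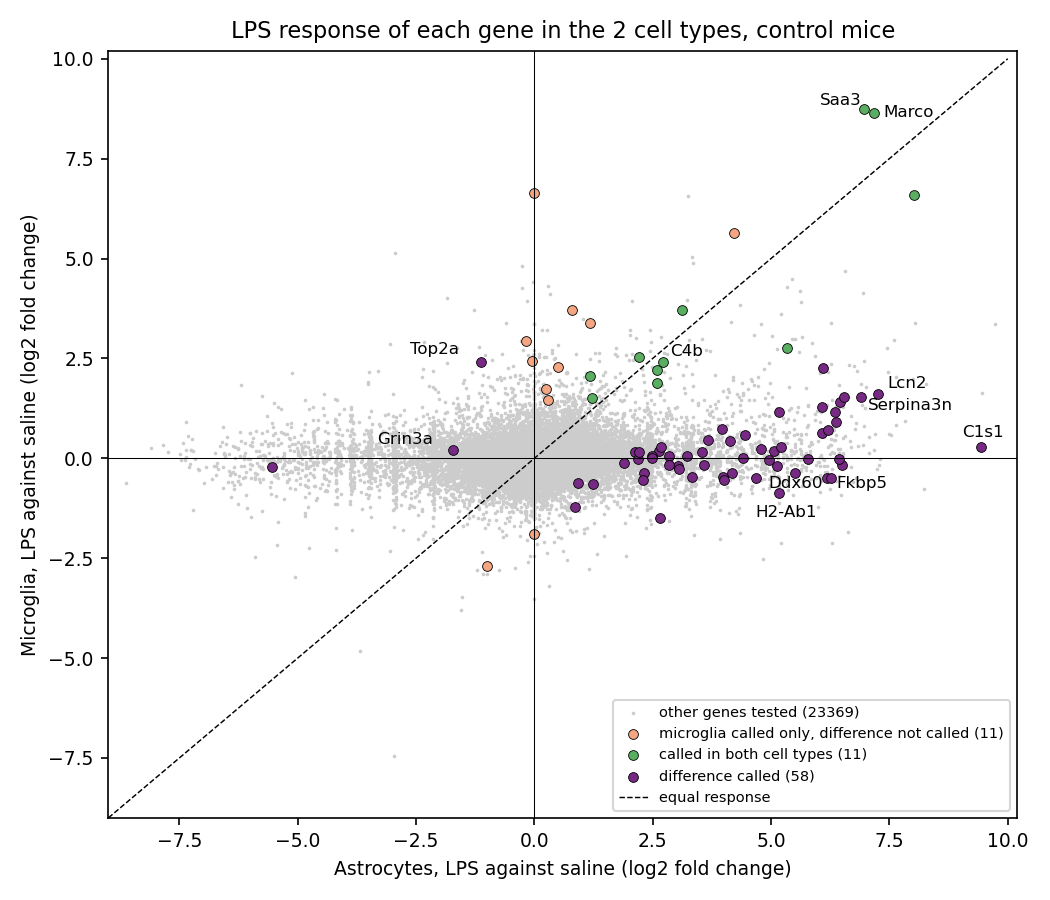
LPS response of each tested gene in astrocytes (x axis) and in microglia (y axis), as log2 fold change of LPS over saline in controls, with 3 libraries in each group; each point is a gene. The 58 genes whose difference was called lie mostly along the x axis to the right, with responses in microglia between -1.49 and 2.41, while the 11 genes called in both cell types lie above 0 on both axes, and 1 of the 12 genes called in microglia but not in astrocytes, Top2a, is among the 58.

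Interferon-stimulated genes formed one group of the difference. Their products block viral replication or tune interferon signalling. Of 34 such genes tested, 7 had a called negative difference (Isg15, Oasl2, Mx1, Usp18, Ifih1, Cmpk2 and Trim30a) and none a positive one, and 25 of the 34 rose in astrocytes against 1 of 34 in microglia (Ifitm3). The median response of the list was 3.50 in astrocytes and 1.13 in microglia, and the median difference was -2.51 against -0.01 over all genes. The list contributed 15 genes with a called difference without astrocyte LPS control 3 and 1 without microglia LPS control 2. Without astrocyte LPS control 3, 3 of the 34 rose in microglia. Promoters of 4 genes with a called difference are shown, Isg15 of this list, Igtp of the GTPases, H2-T23 of MHC class I and Ddx60 of no list, because each holds the interferon-stimulated response element, a short sequence through which interferon switches genes on. They are the 250 bases before the RefSeq transcription start, 5' to 3' on the strand of the gene, in build GRCm38.p6: chr8:61927837-61928086 (+) for Ddx60, chr4:156200819-156201068 (-) for Isg15, chr11:58199306-58199555 (+) for Igtp and chr17:36032702-36032951 (-) for H2-T23. Capitals mark the element on either strand, searched as GAAA, any 2 bases and GAAA again.
Ddx60: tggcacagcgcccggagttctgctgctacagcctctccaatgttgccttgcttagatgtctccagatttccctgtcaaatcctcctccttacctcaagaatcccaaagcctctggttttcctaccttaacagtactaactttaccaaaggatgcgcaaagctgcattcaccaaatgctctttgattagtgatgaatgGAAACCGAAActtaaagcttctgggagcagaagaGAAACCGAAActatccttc
Isg15: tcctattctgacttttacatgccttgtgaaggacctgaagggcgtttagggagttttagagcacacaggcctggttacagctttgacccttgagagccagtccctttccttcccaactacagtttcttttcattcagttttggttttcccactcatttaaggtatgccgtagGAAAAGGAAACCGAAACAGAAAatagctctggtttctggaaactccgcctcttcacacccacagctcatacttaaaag
Igtp: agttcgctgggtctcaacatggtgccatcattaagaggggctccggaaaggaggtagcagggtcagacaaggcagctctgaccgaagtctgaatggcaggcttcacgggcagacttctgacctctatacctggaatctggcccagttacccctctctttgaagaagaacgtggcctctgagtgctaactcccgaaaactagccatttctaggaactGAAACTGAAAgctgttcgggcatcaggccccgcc
H2-T23: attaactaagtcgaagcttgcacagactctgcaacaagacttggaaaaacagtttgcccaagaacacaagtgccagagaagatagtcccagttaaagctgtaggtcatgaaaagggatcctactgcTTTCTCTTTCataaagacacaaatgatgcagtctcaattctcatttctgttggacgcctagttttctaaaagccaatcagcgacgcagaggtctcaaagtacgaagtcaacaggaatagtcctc
Matches began 53 and 19 bases before the start of Ddx60, 34 before that of Igtp and 124 before that of H2-T23, where the match is on the other strand. Isg15 held 3 overlapping matches at 78, 72 and 66 bases before its start. The element was searched in the 300 bases from 250 before to 50 after each start. A gene with more than 1 start was counted if any of its windows held a match. Of the 55 genes with a negative difference, 41 had a promoter on file, and the element was present in 9 of these (22%). It was present in 64 of 435 such genes that rose in astrocytes (14.7%) and in 14 of 24 of the interferon-stimulated list (58.3%). Over all genes tested it was present in 495 of 13326 (3.71%). A match is a description of the sequence and not a site of binding.

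Ddx60, which encodes a helicase that aids the sensing of viral RNA (chr8:61928087-62038244 on GRCm38), had among the smallest p-values of the difference. In microglia it was at 1.06, 3.02 and 2.94 CPM in saline libraries 1 to 3 and at 1.69, 2.70 and 1.79 CPM in LPS libraries 1 to 3. Ddx60 in astrocytes was at 1.79, 2.41 and 1.76 CPM in saline and at 123, 49.4 and 38.7 CPM in LPS. The microglial groups overlapped and all 3 LPS astrocyte libraries lay above all saline ones. Its response was 5.13 ± 0.50 (SE) in astrocytes and -0.20 ± 0.46 in microglia, a difference of -5.33 ± 0.67 (edgeR adjusted p = 0.0052).

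Isg15 encodes a ubiquitin-like protein that is conjugated to other proteins, and Usp18 encodes the protease that removes it and damps the interferon receptor. Isg15 was at 0.532, 0.323 and 1.21 CPM in saline and at 2.44, 1.37 and 2.72 CPM in LPS microglia. Isg15 in astrocytes was at 0.211, 0.464 and 0.330 CPM in saline and at 67.4, 39.1 and 17.2 CPM in LPS. The LPS libraries lay above the saline libraries in both cell types, but the level reached in microglia stayed under that of any LPS astrocyte library. The difference of Isg15 was -5.37 ± 0.86 (edgeR adjusted p = 0.016). Usp18 was at 1.17, 2.05 and 1.57 CPM in saline and at 3.80, 2.21 and 4.85 CPM in LPS microglia. Usp18 in astrocytes was at 0.211, 0.185 and 0.660 CPM in saline and at 45.6, 16.4 and 24.7 CPM in LPS. Again neither pair of groups overlapped, and the difference was -5.18 ± 0.78 (edgeR adjusted p = 0.013). Among the other members, Mx1, a GTPase that traps viral nucleocapsids, differed by -5.48 ± 0.91, and Oasl2, a relative of the 2'-5' oligoadenylate synthetases, by -3.83 ± 0.61. Cmpk2, a mitochondrial nucleotide kinase, differed by -3.24 ± 0.51 and Ifih1, a cytosolic sensor of long double-stranded RNA, by -2.44 ± 0.49, with microglial responses of -0.20 and 0.19. Ifitm3, which blocks entry of viruses through endosomes, rose in both cell types, by 5.33 in astrocytes and 2.76 in microglia, and its difference of -2.57 was not called (edgeR adjusted p = 0.064), although it was without astrocyte LPS control 3 (-2.86, edgeR adjusted p = 0.0099). The microglial responses of the list were above 0 for 33 of 34 genes, with a highest value of 3.94 for Oasl1.

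Interferon-induced GTPases, which attack the vacuoles of intracellular pathogens, followed the same direction. All 13 tested rose in astrocytes, none was called in microglia (1 without astrocyte LPS control 3), and the medians were 4.98 and 1.17. The difference was called for 1, Igtp, and for 8 without astrocyte LPS control 3, but for none without microglia LPS control 2. Igtp was at 3.93, 3.98 and 3.62 CPM in saline and at 4.69, 4.34 and 4.92 CPM in LPS microglia. Igtp in astrocytes was at 3.05, 3.52 and 6.6 CPM in saline and at 326, 119 and 37.2 CPM in LPS. The 6 microglial libraries spanned a narrow range, whereas LPS astrocytes ranged widely and all exceeded saline. The difference of Igtp was -4.92 ± 0.77 (edgeR adjusted p = 0.016). Gbp2 reached 975, 540 and 30.2 CPM in LPS astrocytes from 2.53 to 6.16 CPM in saline, and its difference of -4.52 was not called (edgeR adjusted p = 0.24), but was called without astrocyte LPS control 3 (-5.06, edgeR adjusted p = 0.0019). Reads of near-identical GTPase genes may be split between copies.

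Antigen presentation through MHC class I, which shows peptides from inside the cell to CD8 T cells, had 17 of 18 tested genes called higher in astrocytes and none in microglia, with medians of 2.78 and 0.86. Without astrocyte LPS control 3, 3 of the 18 were called higher in microglia. The difference was called for H2-T23, Psmb8 and Nlrc5 and, without astrocyte LPS control 3, for 13 of the 18, but for 1 to 3 of them without any other single library. H2-T23 encodes Qa-1, a non-classical class I molecule read by inhibitory receptors of NK cells. It was at 11.5, 7.54 and 8.24 CPM in saline and at 12.8, 13.7 and 18.3 CPM in LPS microglia. H2-T23 in astrocytes was at 0.948, 1.76 and 0.440 CPM in saline and at 128, 91.7 and 17.4 CPM in LPS. In saline H2-T23 was therefore lower in every astrocyte library than in any microglial library, and after LPS 2 of the 3 astrocyte libraries exceeded every microglial one. The response was 6.2 ± 0.65 in astrocytes and 0.72 ± 0.50 in microglia, and the difference was -5.48 ± 0.79 (edgeR adjusted p = 0.0087), or -5.94 without astrocyte LPS control 3. Nlrc5, the activator of class I transcription, differed by -5.01 ± 0.85, and Psmb8, a subunit of the immunoproteasome, by -4.78 ± 0.89. The classical gene H2-K1 had responses of 2.75 in astrocytes and 2.16 in microglia, and the 95% interval of the difference was -1.85 to 0.68. The microglial response of H2-K1 was not called in the fit of all 12 libraries but was without astrocyte LPS control 3 (2.14, edgeR adjusted p = 0.0061). Class I H2 genes are similar in sequence and reads may be split between them.

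MHC class II presents peptides taken up from outside the cell to CD4 T cells. Here 3 of 9 genes tested rose in astrocytes (H2-Aa, H2-Ab1 and Cd74) and none was called in microglia, with medians of 2.42 and -0.37. The difference was called for H2-Ab1, and for 3 genes without astrocyte LPS control 3. H2-Ab1 was at 20.3, 31.7 and 56.1 CPM in saline and at 24.1, 15.7 and 19.1 CPM in LPS microglia. H2-Ab1 in astrocytes was at 0.211, 0.0927 and 0.330 CPM in saline and at 11.4, 8.99 and 2.39 CPM in LPS. The microglial groups overlapped, and astrocytes stayed below every microglial library also after LPS. The difference of H2-Ab1 was -6.04 ± 0.83 (edgeR adjusted p = 0.0052). Class II genes are markers of myeloid cells too. Microglial markers summed to 354 to 410 CPM in saline astrocytes and to 247, 557 and 720 CPM in LPS astrocyte libraries 1, 2 and 3, with none of the 10 at 0, and the 10 monocyte markers summed to 122 to 134 CPM in saline, with 4 of them at 0, and to 255, 205 and 111 CPM in LPS, with none at 0. Most of the monocyte sum in LPS was 1 gene, Vcan, at 228, 158 and 64.4 CPM, which is also a marker of oligodendrocyte precursors, whereas Ccr2 and Ly6c2 were at 0 to 0.387 CPM. The part of these cells in the result was not tested. In such bulk samples, a change in the number of cells of a type and a change in RNA per cell cannot be told apart.

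**Figure D2:**
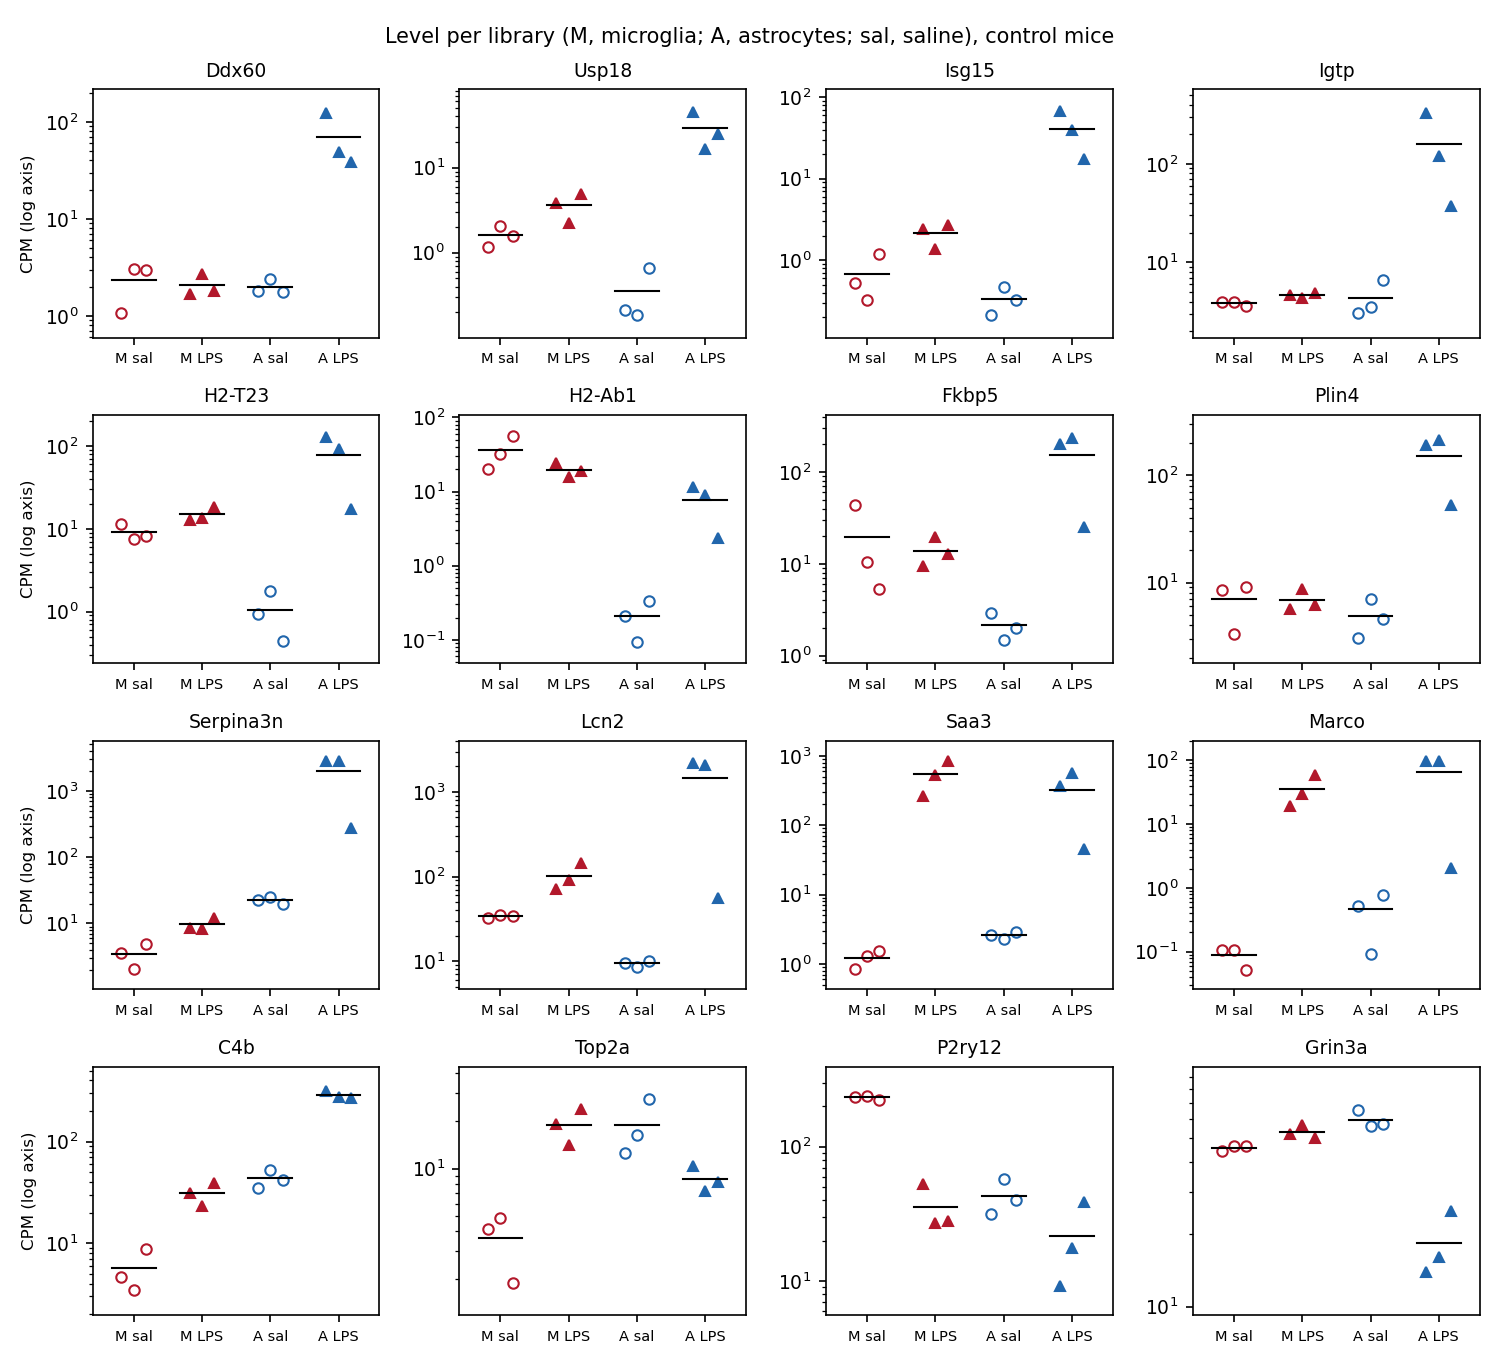
CPM of 16 genes in each of the 12 control libraries, on a log axis of its own for each gene; points from left to right within a group are libraries 1 to 3, and bars are group means. From Ddx60 to Lcn2 the LPS astrocyte libraries rise far above saline while microglia move less, Saa3, Marco and C4b rise in both cell types, and astrocyte LPS control 3 is the lowest of its group for H2-T23 (17.4 CPM), Serpina3n (278 CPM) and Lcn2 (55.9 CPM).

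Genes of reactive astrocytes made up another group, but the lists overlap and 27 of the 58 genes were in a list. H2-T23 and Psmb8 are also counted under MHC class I, Serping1 under complement, Fkbp5 under glucocorticoids and Lcn2 under acute phase genes. Reactive astrocytes have been sorted in other mice into sets called A1, seen after LPS, A2, seen after ischaemia, and pan-reactive, seen after both, so the A1 set was itself defined in LPS-treated astrocytes. All 11 A1 genes tested rose in astrocytes and none was called in microglia, with medians of 5.97 and 0.72. Without astrocyte LPS control 3, 2 of the 11 were called higher in microglia. The difference was called for 7 of the 11 (H2-T23, Serping1, Ggta1, Fbln5, Fkbp5, Psmb8 and Amigo2), for 10 without astrocyte LPS control 3 and for 2 without astrocyte LPS control 2. All 13 pan-reactive genes rose in astrocytes, with a median of 4.27 against 1.42 in microglia. In microglia Vim alone was called in the fit of all 12 libraries, and 5 genes were called without astrocyte LPS control 3. The difference was called for Lcn2 and Serpina3n, for 8 without astrocyte LPS control 3 and for none without astrocyte LPS control 2. Of 12 A2 genes, 5 rose in astrocytes and none had a called difference in edgeR, with 3 called without astrocyte LPS control 3. Before adjustment 7 of the 12 had p under 0.05, and DESeq2 called 2 and limma 1. Serpina3n, a secreted inhibitor of serine proteases, was at 3.62, 2.05 and 4.88 CPM in saline and at 8.62, 8.36 and 12.0 CPM in LPS microglia. Serpina3n in astrocytes was at 23, 25.2 and 19.4 CPM in saline and at 2794, 2831 and 278 CPM in LPS. No groups overlapped, and LPS astrocyte libraries 1 and 2 were each well above library 3. The difference of Serpina3n was -5.03 ± 0.81 (edgeR adjusted p = 0.016). Lcn2, which withholds iron from bacteria, was at 32.5, 35.4 and 34.1 CPM in saline and at 71.5, 91.5 and 146 CPM in LPS microglia. Lcn2 in astrocytes was at 9.58, 8.62 and 10.1 CPM in saline and at 2177, 2088 and 55.9 CPM in LPS. LPS astrocyte library 3 was thus below all 3 LPS microglial libraries and the other astrocyte libraries far above them. The difference of Lcn2 was -5.66 ± 1.09 (edgeR adjusted p = 0.045), or -6.21 without astrocyte LPS control 3, and the call was lost without any of the other 11 libraries. Fbln5, an extracellular protein of elastic fibres, differed by -4.45 ± 0.61, Amigo2, an adhesion protein, by -3.17 ± 0.58, and Ggta1, a galactosyltransferase, by -2.22 ± 0.43. Genes of astrocyte homeostasis, such as the transporters Slc1a2 and Slc1a3 and the channel Aqp4, had no called difference in edgeR among 23 tested, where 2 had p under 0.05 before adjustment and DESeq2 and limma called 0, and 1 gene rose in astrocytes, the connexin Gjb6 (1.28). Without astrocyte LPS control 3 the difference was called for the connexin Gja1 (1.4, edgeR adjusted p = 0.015), and 3 of the 23 fell in astrocytes.

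**Figure D3:**
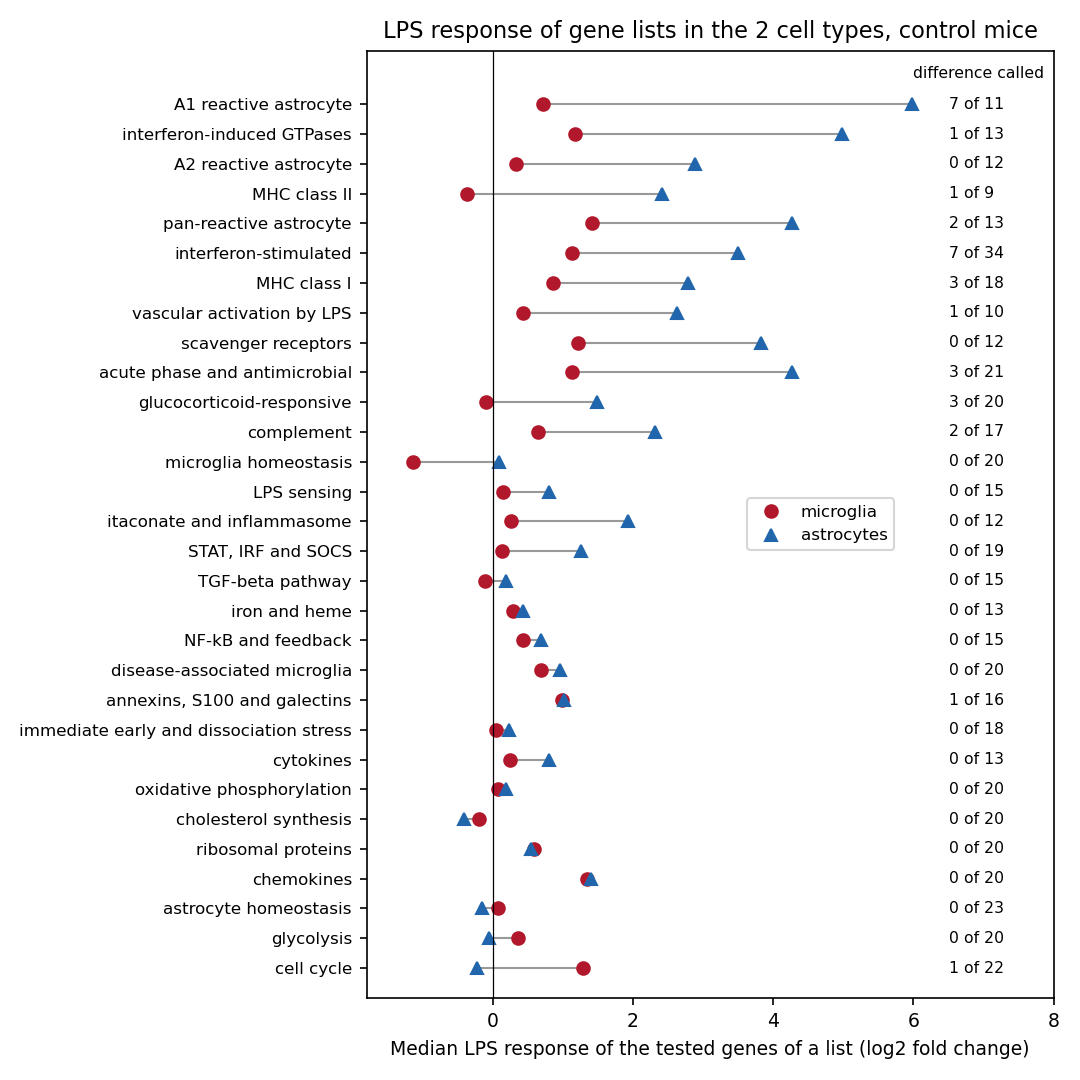
Median LPS response of the tested genes of each gene list in microglia (circles) and astrocytes (triangles), in log2 units, with the number of genes whose difference was called at the right; lines join the 2 medians of a list. The A1 list has the widest gap (0.72 and 5.97), lists of chemokines, ribosomal proteins and oxidative phosphorylation have nearly equal medians, and the cell cycle list has the higher median in microglia (1.29 and -0.23).

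Among 20 genes known to respond to glucocorticoids, 8 rose in astrocytes and none was called in microglia, with medians of 1.49 and -0.10. The difference was called for Fkbp5, Plin4 and Sult1a1, for 6 without astrocyte LPS control 3 and for 2 without astrocyte LPS control 2. Fkbp5 encodes a co-chaperone that dampens the glucocorticoid receptor. It was at 43.8, 10.3 and 5.30 CPM in saline and at 9.37, 19.7 and 12.8 CPM in LPS microglia. Fkbp5 in astrocytes was at 2.95, 1.48 and 1.98 CPM in saline and at 204, 232 and 24.9 CPM in LPS. The microglial groups overlapped, microglia saline control 1 being the highest of the 6, and the difference was -6.66 ± 1.09 (edgeR adjusted p = 0.018). Plin4, a coat protein of lipid droplets, was at 8.51, 3.34 and 9.13 CPM in saline and at 5.67, 8.72 and 6.18 CPM in LPS microglia. Plin4 in astrocytes was at 3.05, 7.04 and 4.62 CPM in saline and at 193, 211 and 52.8 CPM in LPS. Only the astrocyte groups of Plin4 were apart, and its difference was -4.99 ± 0.67 (edgeR adjusted p = 0.0052). Sult1a1, a sulfotransferase of phenols, was at 14.5, 9.05 and 9.50 CPM in saline and at 10.7, 10.3 and 8.37 CPM in LPS microglia. Sult1a1 in astrocytes was at 9.90, 13.5 and 9.57 CPM in saline and at 56.5, 95.8 and 86.6 CPM in LPS. For Sult1a1 astrocyte LPS control 3 was not the lowest library, and the difference was -3.02 ± 0.40 (edgeR adjusted p = 0.0052). Per1, a clock gene with a known response to glucocorticoids, had responses of 0.06 in astrocytes and 0.02 in microglia, and the difference of -0.04 had a 95% interval of -0.99 to 0.90. The promoter of Serpina3n is shown for the glucocorticoid response element, in capitals, that lies in its 250 bases before the RefSeq start, chr12:104406458-104406707 (+) in GRCm38.p6, beginning 78 bases before it. Serpina3n is not in the glucocorticoid list, and the 250 bases before the starts of Fkbp5, Plin4 and Sult1a1 held no match.
Serpina3n: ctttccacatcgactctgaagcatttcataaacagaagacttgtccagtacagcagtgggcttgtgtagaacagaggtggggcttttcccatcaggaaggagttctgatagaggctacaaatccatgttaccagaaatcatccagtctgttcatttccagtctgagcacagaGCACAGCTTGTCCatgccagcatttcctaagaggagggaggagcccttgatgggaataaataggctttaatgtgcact
The element was searched on both strands of the same 300 bases as GNACA, any 3 bases and TGTNC, where N is any base. It was present in 4 of the 41 genes with a negative difference and a promoter on file (9.76%). Of such genes that rose in astrocytes it was present in 8 of 435 (1.84%), and over all genes tested in 56 of 13326 (0.42%). The NF-kB consensus was in 0 of the 41, in 45 of the 435 (10.3%) and in 824 of the 13326 (6.18%).

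Complement genes encode a cascade of blood proteins that tag and lyse microbes. Of 17 tested, 7 rose in astrocytes (median 2.31) and C4b alone rose in microglia (median 0.64), or 2 without astrocyte LPS control 3. The difference was called for C1s1 and Serping1, for 4 genes without astrocyte LPS control 3 and for none without astrocyte LPS control 2. Serping1, which inhibits the proteases of the C1 complex, was at 3.08, 2.80 and 5.88 CPM in saline and at 7.78, 5.13 and 5.98 CPM in LPS microglia. Serping1 in astrocytes was at 3.69, 1.67 and 2.97 CPM in saline and at 310, 228 and 22 CPM in LPS, and the difference was -5.44 ± 0.92 (edgeR adjusted p = 0.021). C1s1, a protease of that complex, had 0 counts in all 3 saline astrocyte libraries and 11.5, 7.22 and 2.05 CPM in LPS, at least 67.8-fold higher when 3 counts are allowed over the saline group. In microglia C1s1 was at 0.319 to 1.10 CPM in saline and 0.531 to 1.2 CPM in LPS, so the groups overlapped, and the fitted difference of -9.16 (edgeR adjusted p = 0.039) depends on how the 0 counts are handled. Both the protease and its inhibitor thus rose in astrocytes. C3, the central component, reached 51.5, 28.2 and 2.22 CPM in LPS astrocytes and 44.6, 43.6 and 52.0 CPM in LPS microglia, and its difference of -5.22 was not called (edgeR adjusted p = 0.077), but was without astrocyte LPS control 3 (-5.75, edgeR adjusted p = 0.00037).

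Of 21 acute phase and antimicrobial genes, 14 rose in astrocytes and 2 in microglia (Saa3 and Lyz2), where 4 rose without astrocyte LPS control 3. The difference was called for Lcn2, S100a9 and Ngp, for 9 without astrocyte LPS control 3 and for none without astrocyte LPS control 2. S100a9, a subunit of calprotectin, and Ngp, a granule protein, are genes of neutrophils and were at low levels in astrocytes. S100a9 was at 0, 0.0927 and 0 CPM in saline and at 3.19, 2.06 and 0.341 CPM in LPS astrocytes, against 86.8 to 190 CPM in saline and 62.0 to 157 CPM in LPS microglia. Ngp was at 0, 0.0927 and 0 CPM in saline and at 0.580, 1.77 and 0.511 CPM in LPS astrocytes, against 74.1 to 91.8 CPM and 76.7 to 88.5 CPM in microglia. The differences of -5.88 and -4.42 thus rest on a rise from near 0 in astrocytes and on overlapping groups in microglia. The 12 neutrophil markers, which include S100a9 and Ngp, summed to 0.464 to 4.11 CPM in saline astrocytes, with 6 of them at 0. They summed to 12.3 to 16.5 CPM in LPS astrocytes, with 4 at 0, among them Camp and Ltf. Most of the sum in LPS astrocyte library 3 was 1 gene, Csf3r, at 12.1 CPM, against 0.185 to 3.69 CPM in saline astrocytes. Csf3r was at 0.677 and 0.59 CPM in LPS astrocyte libraries 1 and 2. S100a8, Retnlg, Mmp8 and Mmp9 were at 0 in LPS astrocyte library 3. In microglia the 12 neutrophil markers summed to 435 to 567 CPM in saline and to 414 to 648 CPM in LPS. The part of such cells in these values was not tested.

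Ackr1, a receptor that carries chemokines across venules, was the 1 gene of 10 tested for vascular activation with a called difference (-4.55 ± 0.77), while 4 were called without astrocyte LPS control 3 and 0 or 1 without any other single library, the call of Ackr1 being lost without 8 of these. It was at 0.948, 0.278 and 0.330 CPM in saline and at 14.9, 10.5 and 2.73 CPM in LPS astrocytes, against 17.6 to 35.8 CPM in saline and 15.7 to 22.1 CPM in LPS microglia. The 10 endothelial markers summed to 7.79, 9.83 and 22.6 CPM in saline and to 49.5, 120 and 43.8 CPM in LPS astrocytes, with none at 0, and to 18.9 to 22 and 24.6 to 27.6 CPM in microglia. Their part in the result was not tested. Lgals9, a galectin, differed by -3.23 ± 0.60, the 1 called among 16 annexins, S100 proteins and galectins, while 3 were called without astrocyte LPS control 3 and 0 or 1 without any other single library.

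Genes outside these groups had some of the smallest p-values. A2m, a protease trap of plasma, was at 5.32, 3.98 and 3.83 CPM in saline and at 6.80, 6.68 and 5.98 CPM in LPS microglia. A2m in astrocytes was at 7.90, 9.73 and 9.13 CPM in saline and at 228, 278 and 75.2 CPM in LPS. Neither pair of groups overlapped, and the difference was -3.86 ± 0.51 (edgeR adjusted p = 0.0052). Mrpl41, a protein of the mitochondrial ribosome, was at 27.3, 24.7 and 30.5 CPM in saline and at 26.3, 37.6 and 36.7 CPM in LPS microglia. Mrpl41 in astrocytes was at 20.8, 24.5 and 17.8 CPM in saline and at 109, 162 and 133 CPM in LPS. The microglial groups overlapped, the astrocyte groups were apart, and the difference was -2.39 ± 0.32 (edgeR adjusted p = 0.0052). Parp10, a mono-ADP-ribosyltransferase, differed by -4.88 ± 0.75 (edgeR adjusted p = 0.015), from 0.278 to 1.21 CPM in saline to 13.7 to 31.9 CPM in LPS astrocytes. Tlr7, the endosomal sensor of single-stranded RNA, is named here after its values were seen. Its level went from 38.2, 23.9 and 16.9 CPM in saline to 13.1, 7.70 and 7.24 CPM in LPS microglia, and from 1.26, 4.73 and 5.61 to 18, 42.9 and 12.4 CPM in astrocytes. The microglial response of Tlr7, -1.49, was not called, the astrocyte response was 2.66, and the difference was -4.14 ± 0.74 (edgeR adjusted p = 0.027).

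Of the 3 genes with a positive difference, 1 is a predicted gene. Top2a, the topoisomerase that untangles DNA of dividing cells, was at 4.15, 4.85 and 1.89 CPM in saline and at 19.1, 14.0 and 23.8 CPM in LPS microglia. Top2a in astrocytes was at 12.6, 16.3 and 27.6 CPM in saline and at 10.3, 7.22 and 8.18 CPM in LPS. The groups were apart in both cell types and in opposite order, but only the microglial rise of 2.41 ± 0.42 was called, not the astrocyte value of -1.13 ± 0.40 (edgeR adjusted p = 0.13). The difference was 3.54 ± 0.58 (edgeR adjusted p = 0.016) and ranged from 3.17 to 3.82 without 1 library, the call being lost without astrocyte LPS control 2 or microglia LPS control 1 or 3. Among the 22 cell cycle genes tested, 21 had a difference above 0, with a median of 1.42, and Top2a was the 1 called. Aurka, a mitotic kinase, was also called without astrocyte LPS control 3 (4.01, edgeR adjusted p = 0.022). Mki67, a marker of proliferation, had responses of 0.77 in microglia and -0.55 in astrocytes, with a difference of 1.32 that was not called. Grin3a, a subunit of NMDA receptors, was at 44.5, 46.4 and 46.6 CPM in saline and at 52.3, 56.9 and 50.4 CPM in LPS microglia. Grin3a in astrocytes was at 65.7, 56.3 and 57.5 CPM in saline and at 13.9, 16.1 and 24.9 CPM in LPS. Grin3a fell by 1.72 ± 0.23 on the log2 scale in astrocytes, and its difference was 1.93 ± 0.32 (edgeR adjusted p = 0.018). Neuron markers summed to 754 to 879 CPM in saline and 924 to 1318 CPM in LPS astrocytes, with none of the 10 at 0, and their part in the result was not tested.

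A total of 11 genes rose in both cell types, and the difference was called for none of them. No gene fell in both or was called in opposite directions. Saa3, an acute phase apolipoprotein, was at 0.851, 1.29 and 1.52 CPM in saline and at 264, 523 and 837 CPM in LPS microglia. Saa3 in astrocytes was at 2.63, 2.32 and 2.86 CPM in saline and at 362, 574 and 45.9 CPM in LPS. Its responses were 8.74 ± 0.82 in microglia and 6.97 ± 0.75 in astrocytes, and the interval of the difference, -0.24 to 3.77, allows a larger response in microglia. Marco, a scavenger receptor for bacteria, was at 0.0525 to 0.108 CPM in saline and at 19.6, 29.4 and 59.2 CPM in LPS microglia, and at 0.0927 to 0.770 CPM in saline and 99.5, 96.3 and 2.05 CPM in LPS astrocytes. Both genes thus rose from low levels in every LPS library, least in astrocyte LPS control 3. C4b, which opsonises targets of complement, was at 4.68, 3.45 and 8.87 CPM in saline and at 31.1, 23.2 and 38.8 CPM in LPS microglia. C4b in astrocytes was at 35.4, 52.6 and 42.4 CPM in saline and at 312, 274 and 270 CPM in LPS. The responses of C4b were 2.41 ± 0.31 and 2.71 ± 0.30, and the 95% interval of the difference was -1.17 to 0.57. Lgals3bp, a secreted glycoprotein, had responses of 2.21 and 2.58 with an interval of -1.34 to 0.61, and Vim, an intermediate filament protein, 2.53 and 2.22 with an interval of -0.69 to 1.33. Lyz2, a lysozyme of myeloid cells whose reads may be shared with Lyz1, rose by 1.89 on the log2 scale in microglia and by 2.59 in astrocytes. Its saline libraries ranged from 128 to 168 CPM in microglia and from 2.5 to 4.21 CPM in astrocytes. Siglec1, a sialic acid receptor of macrophages, rose by 3.70 and 3.12, with saline levels of 1.17 to 1.94 and 0 to 1.21 CPM. Acod1, which makes itaconate, rose by 6.6 on the log2 scale in microglia, where saline libraries ranged from 0.105 to 0.215 CPM. Acod1 in astrocytes rose from 0 counts in saline to 1.06, 5.16 and 1.71 CPM in LPS. That is at least 25.9-fold higher with 3 counts allowed over the saline group. The astrocyte libraries also held microglial markers, which summed to 354 to 410 CPM in saline and to 247, 557 and 720 CPM in LPS. The part of microglia or other myeloid cells in these astrocyte values was not tested.

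Of the 23 genes called in microglia, 12 were not called in astrocytes, and Top2a was the 1 of these whose difference was called. P2ry12, the purinergic receptor of surveying microglia, fell from 235, 240 and 224 CPM in saline to 52.5, 26.9 and 28.0 CPM in LPS microglia. P2ry12 in astrocyte libraries was at 31.8, 57.4 and 40.4 CPM in saline and at 9.19, 17.7 and 38.5 CPM in LPS. P2ry12 fell by 2.70 ± 0.40 on the log2 scale in microglia, and the difference of -1.70 ± 0.55 was not called (edgeR adjusted p = 0.25). Without astrocyte LPS control 3, P2ry12 also fell in astrocytes (-1.74, edgeR adjusted p = 0.009) and the difference was -0.99. Tgfbr1, a receptor of the TGF-beta signal that maintains microglia, was at 117, 87.1 and 97.6 CPM in saline and at 34.2, 23.8 and 23.4 CPM in LPS microglia, a fall by 1.89, against -0.02 in astrocytes. Its difference of -1.87 ± 0.38 missed the threshold (edgeR adjusted p = 0.051) and passed it without astrocyte LPS control 3 (-2.0, edgeR adjusted p = 0.016). All 20 genes of microglial homeostasis had a response below 0 in microglia, with a median of -1.14 against 0.10 in astrocytes. Called lower were 2 of the 20 in microglia and 0 in astrocytes, or 7 and 5 without astrocyte LPS control 3. None of the 20 had a called difference in edgeR, although 10 had an unadjusted p under 0.05, 4 were called by DESeq2 and 1 by limma. The difference was called negative for Cx3cr1 (-1.75), Tgfbr1 and Hpgd (-2.20) and positive for Siglech (2.84) without astrocyte LPS control 3. Il1b, the inflammasome cytokine, rose by 3.70 ± 0.63 in microglia, from 0.532, 0.754 and 0.998 CPM to 4.36, 13.1 and 13.4 CPM. Il1b in astrocytes was at 0.556 to 2.42 CPM in saline and at 2.61 to 2.95 CPM in LPS, and the difference of 2.90 was not called (edgeR adjusted p = 0.19). Hmox1, which degrades heme, and Socs3, a brake on cytokine receptors, rose by 3.37 and 2.44 in microglia, against 1.17 and -0.06 in astrocytes, and their differences were not called either (edgeR adjusted p = 0.12 and 0.092).

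No difference was called among 15 genes of LPS sensing, 15 of NF-kB and its feedback, 13 cytokines or 20 chemokines. The LPS sensing genes had a median difference of -1.13, with Tlr2, the receptor of bacterial lipoproteins, at 5.01 in astrocytes and 1.53 in microglia. At an unadjusted p under 0.05 edgeR had 4, 2, 3 and 3 genes of these lists, DESeq2 called 1, 1, 1 and 2, and limma called 0, 0, 0 and 1. Without astrocyte LPS control 3 the difference was called for 1 LPS sensing gene, Tlr2 (-3.96, edgeR adjusted p = 0.019), and for 1 chemokine, Ccl5 (-3.44, edgeR adjusted p = 0.025). The median differences of the NF-kB, cytokine and chemokine lists were -0.22, -0.13 and 0.18, values that changed sign under at least 1 other setting. Ccl5, an attractant of T cells, rose by 6.26 in astrocytes, and its response of 3.39 in microglia was not called, but was without astrocyte LPS control 3 (3.36, edgeR adjusted p = 0.0053). Genes of oxidative phosphorylation, ribosomal proteins, glycolysis and cholesterol synthesis, 20 of each, had no called difference in edgeR and medians of 0.02, 0.11, 0.33 and 0.09, of which the glycolysis median alone kept its sign in every setting. Without astrocyte LPS control 3, 1 glycolysis gene was called in each direction. An unadjusted p under 0.05 was reached by 0, 0, 2 and 3 of them, DESeq2 called 0, 0, 2 and 0, and limma called 0, 0, 1 and 1. Mvd, an enzyme of cholesterol synthesis, and Insig1, which restrains the pathway, fell by 1.11 and 0.71 on the log2 scale in astrocytes, the call of Mvd being lost without astrocyte LPS control 3 (edgeR adjusted p = 0.057).

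The same difference was fitted in the 12 knockout libraries, which came from siblings of the controls. Microglia saline control 1 and knockout 1 were the closest of 15 pairs of saline microglial libraries, with a median chi-square per gene of 1.20 against 1.80 to 9.86 and 28860 genes detected in each. Leaving out the first gave 21 calls in controls and leaving out the second 21 in knockouts. In knockouts 67 genes were called (0.286%), 14 positive (0.0597%) and 53 negative (0.226%). Leaving out astrocyte LPS knockout 3 gave 359 calls, the most without any 1 knockout library. It was the only LPS astrocyte knockout library with transcripts of a female, as LPS library 3 was among the astrocyte controls. Sex and replicate number thus coincide in these libraries, and their part was not tested. Of the 58 genes called in controls, 57 had the same sign in knockouts (98.3%), against 61.1% of all genes tested, and 14 were also called, which is 24.1% of the control calls and 20.9% of the knockout calls. All 14 were negative. H2-T23 differed by -5.44 ± 0.46 in knockouts (edgeR adjusted p = 2.14e-05), Lcn2 by -6.58 ± 0.55 (edgeR adjusted p = 2.14e-05) and Serping1 by -5.10 ± 0.50 (edgeR adjusted p = 9.9e-05). Fkbp5, Plin4, Igtp and Serpina3n were among the 14 as well. Ddx60 differed by -4.97 ± 1.24 in knockouts and Top2a by 3.23 ± 0.80, near their control values, but neither was called there (edgeR adjusted p = 0.11 for each). Mrpl41, called in controls at -2.39, stood at -1.07 ± 0.40 in knockouts. The median over the 55 genes with a negative difference was -4.14 in controls, the values that chose them, and -3.05 in knockouts. Whether the 2 genotypes differ in these differences was not tested.

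**Figure D4:**
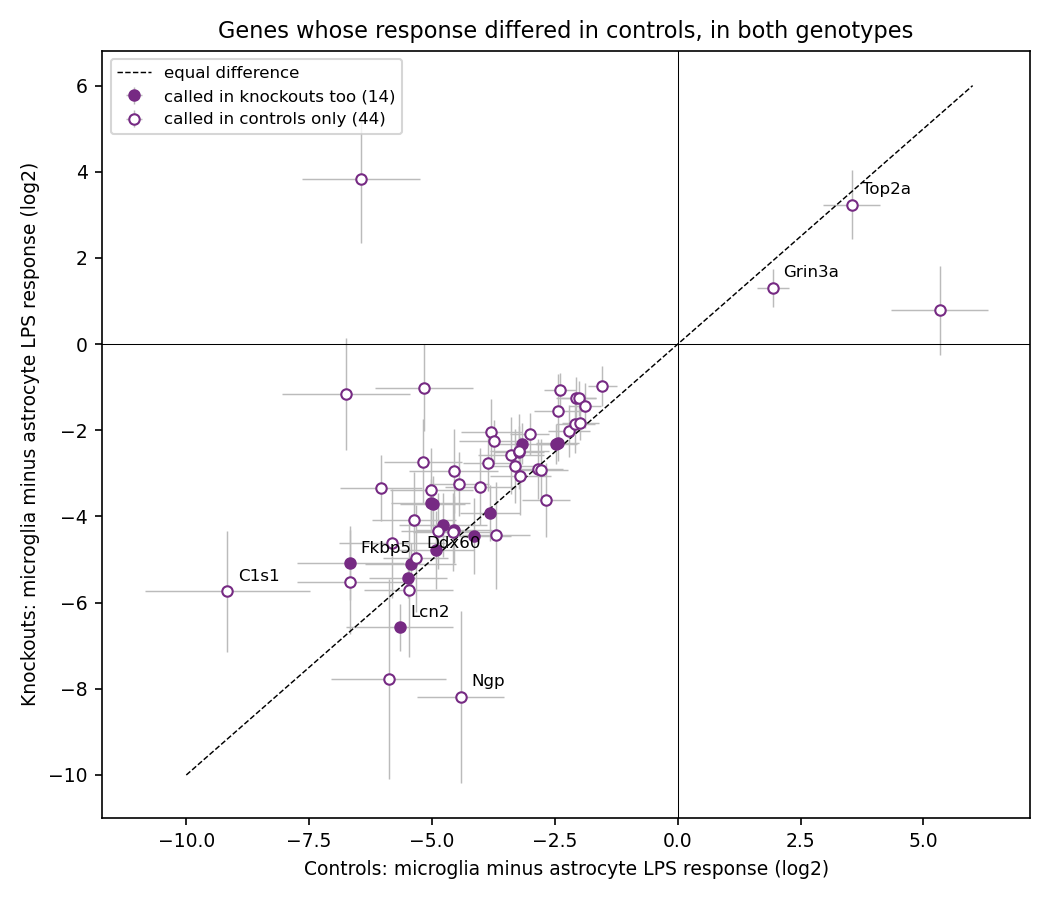
Difference between the LPS responses of microglia and astrocytes for the 58 genes called in controls, in controls (x axis) and in knockouts (y axis), in log2 units with standard errors as bars; filled circles are the 14 genes called in both genotypes. Of the 58 points 57 lie in the quadrants of equal sign, and the median of the 55 negative differences is -4.14 in controls and -3.05 in knockouts.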

How the data were processed

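Libraries were RNA sequencing of immunopanned cells. The authors deposited raw read counts per gene, made with STAR 2.6.0c and HTSeq (version, strand setting and annotation not given in the sources used here) and builds GRCm38 and GRCm39, per the submitters' processing notes. Rows that name no gene were left out of library sizes and tests. Genes passed edgeR's filterByExpr (minimum count 10, total 15) and were scaled by TMM. Differences were tested over the 12 control libraries with edgeR 4.0.16 (quasi-likelihood, robust, R 4.3.3) and adjusted by Benjamini-Hochberg over 23449 genes, with a threshold of 0.05. SE is the absolute log2 fold change over the square root of F. The script was tested on simulated data. Alternatives used DESeq2 1.42.0, limma 3.58.1, other filters and scalings, sex, replicate blocks and leaving out each library. Fitting each cell type alone was chosen after seeing the data. Named were up to 12 called genes a direction by p with at least 8 CPM in a cell type, up to 8 shared genes a direction, and list members. Genes, lists and the comparison were chosen with earlier results of these data known. Gene positions are from GENCODE M21 (GRCm38). Promoters are from RefSeq (GRCm38.p6), whose starts can differ, and 13326 of the tested genes matched one.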

Additional observations from a re-analysis of the deposited data

Results flagged for a closer look

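The LPS response differed between microglia and astrocytes, by the test of the difference itself, for 32 genes named by rule or list. The difference in log2 units was -5.33 for Ddx60, which is in no list. Among interferon-stimulated genes and GTPases it was -5.37 for Isg15, -5.18 for Usp18, -5.48 for Mx1, -3.83 for Oasl2, -3.24 for Cmpk2, -3.70 for Trim30a, -2.44 for Ifih1 and -4.93 for Igtp. Among genes of antigen presentation it was -5.48 for H2-T23, -5.01 for Nlrc5, -4.78 for Psmb8 and -6.04 for H2-Ab1. Among genes of reactive astrocytes it was -5.03 for Serpina3n, -5.66 for Lcn2, -4.45 for Fbln5, -3.17 for Amigo2 and -2.22 for Ggta1. Glucocorticoid-responsive genes stood at -6.66 for Fkbp5, -4.99 for Plin4 and -3.01 for Sult1a1. Complement and neutrophil genes stood at -5.44 for Serping1, -9.16 for C1s1, -5.88 for S100a9 and -4.42 for Ngp. The others were -3.86 for A2m, -2.39 for Mrpl41, -4.88 for Parp10, -4.55 for Ackr1 and -3.23 for Lgals9, and, with a positive sign, 3.54 for Top2a and 1.93 for Grin3a.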

How the results depend on the processing

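The number of genes with a called difference in controls, 58, moved to 33 with TMM within each cell type, 482 with DESeq2 (134 positive), 217 with limma voom (73 positive), 724 with no filter on low counts (203 positive) and 28 with sex from the labels. Leaving out 1 library gave 10 to 449. In microglia the 23 calls became 116 with DESeq2, 820 with limma voom (393 higher), 179 with no filter, 40 with all 24 libraries in the fit, 92 with the cell type fitted alone, and 2 to 72 without 1 library, the lowest without saline control 1. In astrocytes the 839 calls became 1833 with DESeq2, 2217 with no filter, 351 with the cell type fitted alone, and 472 without LPS control 2 to 1660 without LPS control 3. In knockouts the 67 calls became 44 with TMM within each cell type, 438 with DESeq2, 112 with limma voom, 177 with no filter, 30 with sex from the labels and 30 with sex from transcripts. They became 19 to 359 without 1 library, the highest without astrocyte LPS knockout 3. The cause of these moves was not tested. With the replicate number as a block, the difference in controls was called for 30 genes, 29 of them among the 58. With a block within each cell type it was called for 25, 18 of them among the 58. Same-numbered libraries correlated between -0.0872 and 0.498 over 18 pairs, and the 3 astrocyte pairs between -0.0473 and -0.0079. In microglia, saline 2 with LPS 2 was at 0.498, saline 3 with LPS 3 at 0.293 and saline 1 with LPS 1 at -0.0488. Microglial saline and LPS libraries of unlike number were between -0.505 and 0.255. The main fit did not pair libraries by number, and whether microglial libraries share a batch was not tested.

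Of the 32 named genes none changed sign under any alternative run, and 9 kept the call in all of them. Median differences kept their sign in every setting for 20 of 30 lists. The depth of microglial libraries, from 5354865 gene counts, limits what can be detected for genes near 0.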
